A study of Homo sapiens with 3 samples.

Results

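The outer ends of the long arms of chromosomes 9 and 21 were examined as a pair of segments rich in replication origin calls. In hg19 coordinates, distal 9q was taken from position 124000000 and distal 21q from position 33000000 to the last call of each chromosome, which lay at 141078294 and 48094499. Every EPIC2 region and every MACS2 summit there was a member, whatever its score. The data came from short nascent strand sequencing (SNS-seq) of HCT116 cells, an established colorectal cancer line, which were untreated in all 3 replicates, so there was 1 group and no contrast between conditions. SNS-seq recovers the short RNA-primed strands that mark a newly fired origin, since λ-exonuclease digests DNA that lacks an RNA primer. The distal arms held 5980 of 247781 EPIC2 regions and 7915 of 442902 summits on chromosomes 1 to 22 and X, added over replicates. An EPIC2 region that contained a summit called in the same replicate was taken as a common region, and 4332 of 183447 common regions were distal. Read depth is unknown, since the lists hold calls and no reads.

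Replication origins are licensed when the origin recognition complex loads the MCM helicase, and more sites are licensed than fire in a given cell. Active origins tend to gather in gene-rich, early replicating chromatin and to be sparse in late replicating chromatin. Band 9q34 is gene-rich and carries ABL1, NOTCH1 and TSC1. Band 21q22 carries RUNX1 and much of the gene content of its chromosome, while the proximal part of 21q is gene-poor. These genes are background here. No call was assigned to a gene, because the reference genome used with these data was of another build.

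The positions that separate distal from remaining sequence had been placed earlier on the ratio of EPIC2 regions to summits in these same lists. That ratio, the density and the spacing are therefore descriptions with no test. Width, summit score, sharing between replicates and the number of summits in a region were not themselves used to place the split. They describe the same EPIC2 and MACS2 calls, however, so they are not independent of its placement. They were tested over the 3 replicates with an exact two-sided sign-flip permutation test, whose smallest possible p is 0.25. No test in this design could pass a threshold of 0.05.

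Distal 9q was densely packed with common regions. It held 1465 in replicate 1, 423 in replicate 2 and 846 in replicate 3, on 18 Mb of 1 Mb windows with a call in any replicate. These numbers came to 81.4, 23.5 and 47.0 common regions per Mb, against 26.0, 4.97 and 13.8 per Mb over the other 102 Mb of the chromosome. The distal value was higher in each replicate, by 3.13, 4.73 and 3.40 times, a mean of 3.75 ± 0.855 (SD, n = 3). Relative to the mean density of the genome in the same replicate, distal 9q lay at 2.30, 2.67 and 2.39 times, while the remainder lay at 0.736, 0.566 and 0.704 times. Between 35.6% and 45.5% of the common regions of the chromosome were distal in a replicate.

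Distal 21q showed a larger contrast with a lower absolute density. It held 897, 234 and 467 common regions on 16 Mb, or 56.1, 14.6 and 29.2 per Mb in replicates 1, 2 and 3. The remaining 22 Mb had 13.4, 2.32 and 4.32 per Mb. The ratio was 4.20, 6.31 and 6.76, a mean of 5.75 ± 1.37 (SD, n = 3), and between 75.3% and 83.1% of the common regions of the chromosome were distal. The larger ratio on chromosome 21 went with a sparse remainder, at 0.378, 0.264 and 0.220 times the genome mean. Distal 21q itself stood at 1.59, 1.66 and 1.49 times the genome mean, below distal 9q in each replicate. Replicate 2 had the fewest common regions in both segments of both chromosomes, as it did over the genome, where the replicates had 35.3, 8.79 and 19.6 per Mb.

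**Figure D1:**
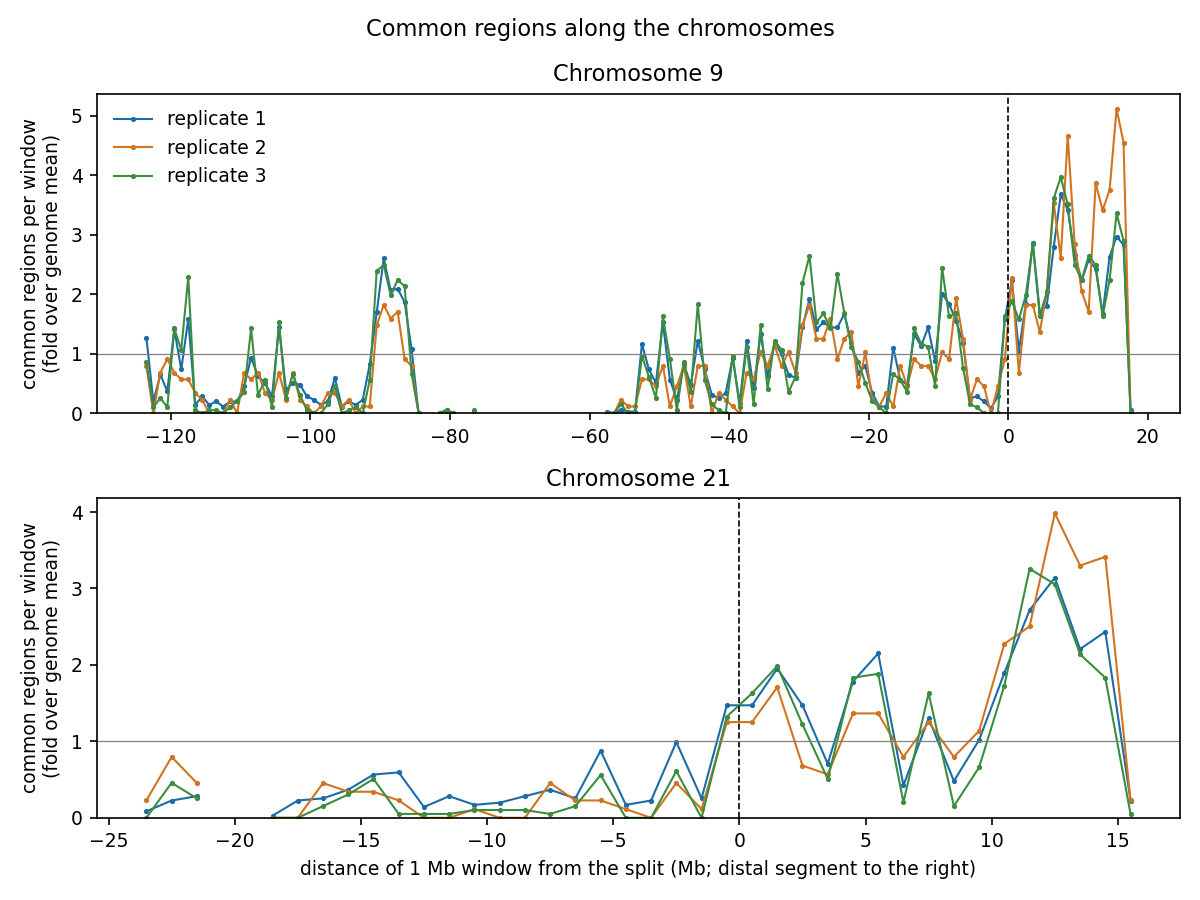
Common regions in each 1 Mb window divided by the mean of the same replicate over all windows with calls, against distance from the split in Mb, with the split as a dashed line, a grey line at 1 and a coloured line per replicate. On chromosome 9 the 3 replicates rise from a trough just before the split to several times the genome mean beyond it, and on chromosome 21 the highest value of each replicate lies 11 to 13 Mb beyond the split. The final window of each chromosome is nearly empty, since the calls end near its start.

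The rise along chromosome 9 followed a trough. In steps of 3 Mb, replicate 1 had 54.0 common regions per Mb from 115 to 118 Mb, then 8.67 from 118 to 121 Mb, 23 from 121 to 124 Mb and 60.3 in the first distal step. Replicates 2 and 3 had the same trough, with 3.67 and 1.67 per Mb from 118 to 121 Mb and 14.0 and 35.7 per Mb in the first distal step. The split thus stood beside a poor stretch, and the last window before it was already fuller, with 56, 8 and 32 common regions. The step from 130 to 133 Mb had 117, 31.7 and 72.7 per Mb, the most of any step shown for replicates 1 and 3, while replicate 2 had slightly more, 32.3 per Mb, from 136 to 139 Mb.

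Chromosome 21 climbed in stages. The step from 27 to 30 Mb had 15, 1.00 and 3.67 common regions per Mb in replicates 1, 2 and 3, the step before the split had 32.0, 5.33 and 12.7, and the first distal step had 57.7, 10.7 and 31.7. No edge was visible at the split itself, since the windows before and after it held 52 and 52 common regions in replicate 1, 11 and 11 in replicate 2, and 26 and 32 in replicate 3. Density then fell again, to 26.0, 8.33 and 13 per Mb from 39 to 42 Mb, and was highest from 45 to 48 Mb, with 91.7, 31.3 and 46.0 per Mb. Distal 21q was thus not uniformly dense.

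Single windows showed the same difference in evenness. A window was called dense when its common regions exceeded the upper quartile of all windows in each of the 3 replicates, which were 54, 11 and 31. Over chromosomes 1 to 22 and X, 500 of 2877 windows met this rule, or 17.4%. On distal 9q, 16 of 18 windows did, against 6 of 102 in the remainder, and on distal 21q 8 of 16 did, against 0 of 22. The windows of distal 9q held between 2 and 130 common regions in replicate 1, with a median of 88.5, and between 0 and 45 in replicate 2 and 0 and 78 in replicate 3, with medians of 21.5 and 46.5. Those of distal 21q had medians of 57.5, 11.5 and 33.0 and reached 111, 35 and 64.

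Few windows in the remainder of chromosome 9, and none in that of chromosome 21, held more common regions than the distal median. In the remainder of chromosome 9, 1 window exceeded the distal median in replicate 1, 0 in replicate 2 and 4 in replicate 3. In the remainder of chromosome 21 no window did in any replicate. The fullest window of distal 9q by mean share of the calls of a replicate was 132 to 133 Mb, with 121, 41 and 69 common regions, which ranked 43 among the 2877 windows. The next were 139 to 140 Mb, with 105, 45 and 66 at rank 50, and 140 to 141 Mb, with 100, 40 and 57 at rank 84. On distal 21q they were 45 to 46 Mb, with 111, 35 and 60 at rank 91, 44 to 45 Mb, with 96, 22 and 64 at rank 202, and 47 to 48 Mb, with 86, 30 and 36 at rank 266.

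Neighbouring common regions were also closer together than in the remainders. The median distance from the end of a common region to the start of the next was 5400 bases in replicate 1, 20100 in replicate 2 and 8600 in replicate 3 on distal 9q, against 12800, 86500 and 16600 in the remainder. The ratio was 0.391 ± 0.145 (SD, n = 3). On distal 21q it was 8000, 33000 and 12800 bases against 23400, 102800 and 22500, a ratio of 0.411 ± 0.137 (SD, n = 3). Spacing was shorter than in the remainder on both arms in all 3 replicates. Over the genome the median was 8600, 36600 and 11400 bases. Distal 9q lay below that in each replicate. Distal 21q lay nearer to it, below it in replicates 1 and 2 and above it in replicate 3.

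The arms also differed from their remainders in how many calls stood alone. On distal 9q, 0.273%, 6.38% and 1.42% of common regions had no neighbour within 50 kb, against 6.60%, 45.6% and 10.5% in the remainder. On distal 21q the shares were 1.90%, 13.7% and 4.07% against 17.7%, 47.1% and 16.8%. In the opposite sense, 70.0%, 29.8% and 54.5% of common regions on distal 9q had a neighbour within 5 kb, against 40.4%, 9.07% and 33.7% in the remainder. On distal 21q 54.6%, 15.4% and 42.4% did, against 28.6%, 11.8% and 29.5%, so the difference was small in replicate 2. Isolated calls were thus rarer on both distal arms in each replicate, most of all in absolute terms in replicate 2, whose remainder was the sparsest.

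**Figure D2:**
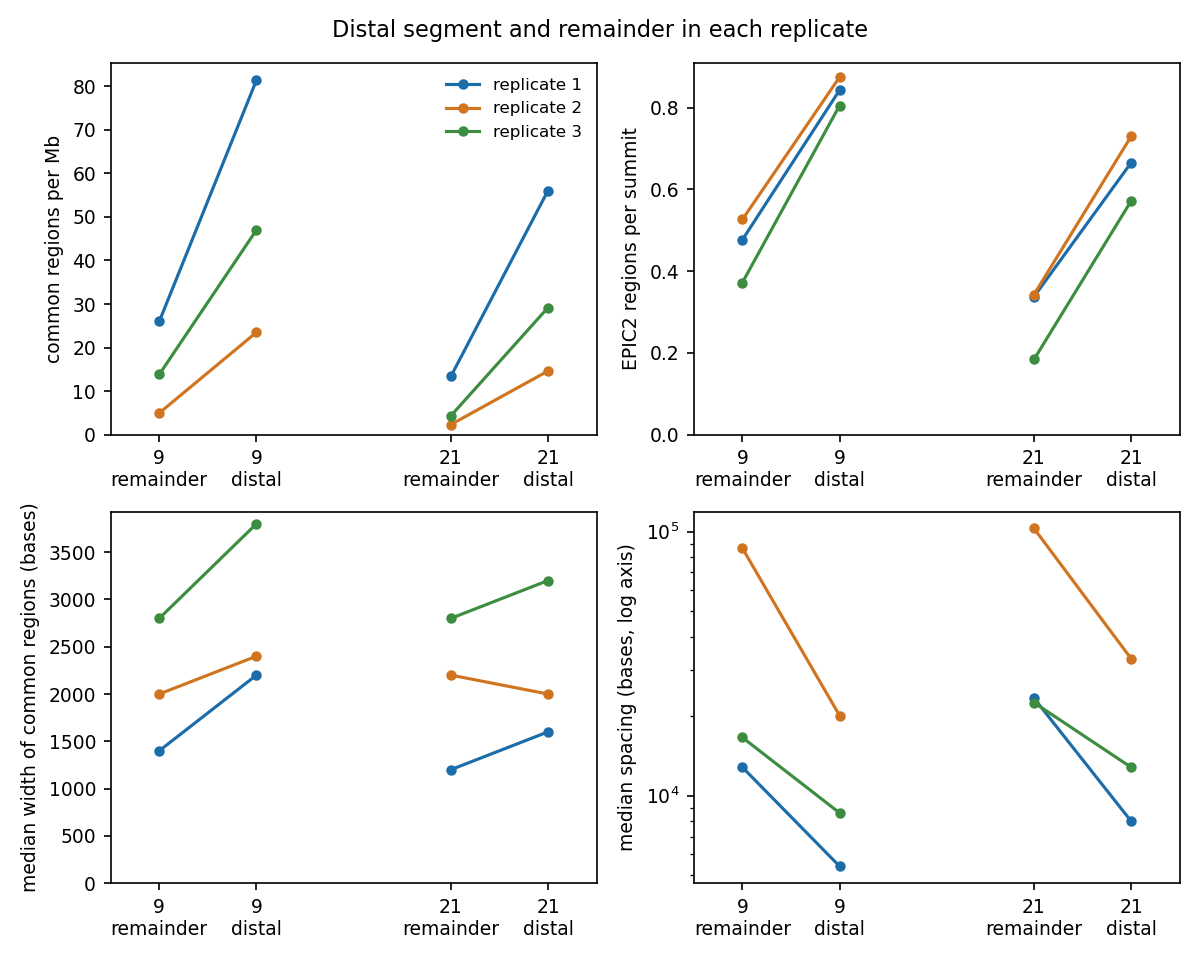
Density of common regions per Mb, EPIC2 regions per summit, median width in bases and median spacing in bases (log axis) in the remainder and the distal segment of chromosomes 9 and 21, with 1 line per replicate. Density and EPIC2 regions per summit rise and spacing falls in all 3 replicates on both chromosomes, whereas width rises in 3 of 3 replicates on chromosome 9 and, with this split and the whole remainder, in 2 of 3 on chromosome 21.

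The callers did not rise by the same factor. EPIC2 calls diffuse regions of enrichment, while MACS2 calls narrow peaks and reports a single base for each. EPIC2 regions per Mb were 3.91 ± 0.407 (SD, n = 3) times the remainder on distal 9q and 6.08 ± 1.51 times on distal 21q, while summits per Mb were 2.13 ± 0.436 and 2.53 ± 0.222 times. The number of EPIC2 regions per summit was accordingly higher, at 0.843, 0.875 and 0.805 on distal 9q against 0.477, 0.527 and 0.372 in the remainder. On distal 21q it was 0.665, 0.730 and 0.572 against 0.337, 0.343 and 0.184. Relative to the genome in the same replicate, distal 9q lay at 1.48, 1.24 and 1.65 times, and its remainder at 0.835, 0.745 and 0.765 times. Distal 21q lay at 1.17, 1.03 and 1.18 times, nearer the genome value than its remainder, at 0.591, 0.485 and 0.378 times. The quotient of distal over remainder was 1.86 ± 0.265 (SD, n = 3) on chromosome 9 and 2.40 ± 0.616 on chromosome 21.

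The excess of summits lay mostly within EPIC2 regions. On distal 9q there were 104, 26.5 and 58.3 summits per Mb inside EPIC2 regions, against 30.5, 5.41 and 17.0 per Mb in the remainder, a ratio of 3.92 ± 0.850 (SD, n = 3). Summits outside EPIC2 regions came to 23.7, 16.1 and 28.2 per Mb on distal 9q against 33.3, 10.9 and 31.7, a ratio of 0.710, 1.48 and 0.889. Unsupported summits were thus fewer per Mb on distal 9q in replicates 1 and 3 and more in replicate 2, and their mean ratio was 1.03 ± 0.405. Distal 21q gained both kinds, with a ratio of 5.49 ± 0.856 inside and of 1.22, 1.81 and 1.58 outside, a mean of 1.54 ± 0.298.

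The share of summits inside an EPIC2 region was 81.5%, 62.2% and 67.4% on distal 9q against 47.8%, 33.3% and 34.9% in the remainder. It was 66.1%, 50.6% and 48.3% on distal 21q against 34.5%, 24.1% and 19.5%. EPIC2 regions covered 29.4%, 11.0% and 31.9% of distal 9q, against 5.06%, 2.31% and 6.20% of the remainder, and 14.0%, 6.20% and 16.0% of distal 21q against 2.15%, 1.38% and 2.13%. Coverage moved with the share of summits inside regions, and its part in that share was not tested.

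Seen from EPIC2, the agreement between callers went the other way in 2 of 3 replicates. On distal 9q, 75.4%, 63.0% and 67.5% of EPIC2 regions held a summit, against 85.3%, 58.0% and 76.3% in the remainder. On distal 21q the shares were 81.7%, 64.6% and 71.6% against 90.5%, 60.7% and 81.2%. Replicates 1 and 3 had lower shares on both distal arms, while replicate 2, which had the fewest calls, had higher shares on both. The mean differences were -4.57 ± 8.34 and -4.80 ± 7.57 percentage points (SD, n = 3), smaller than the spread between replicates.

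**Figure D3:**
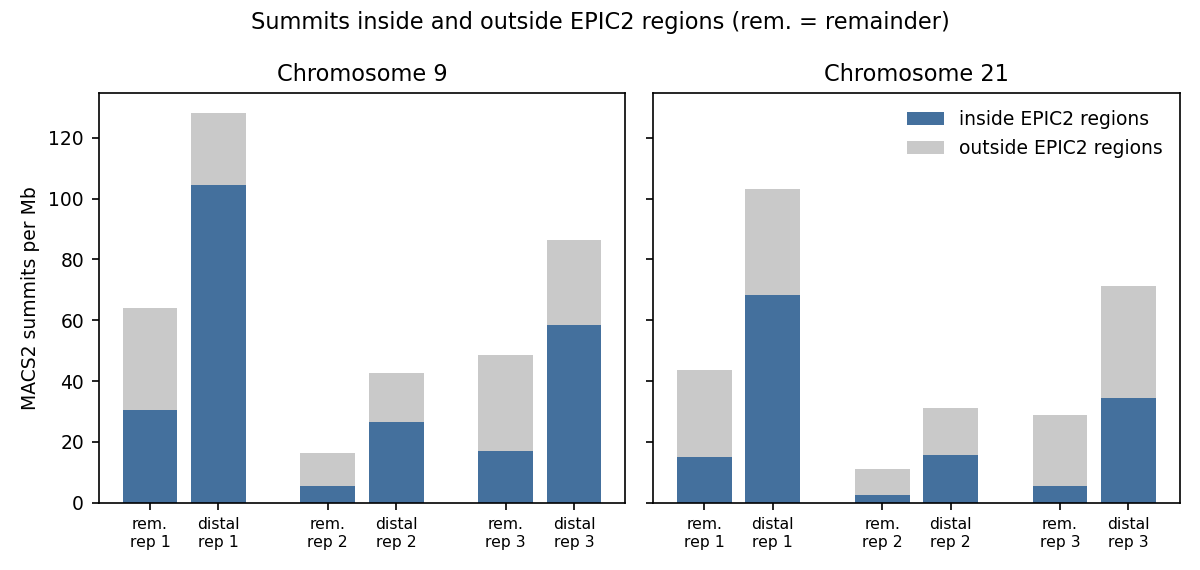
MACS2 summits per Mb in the remainder (rem.) and the distal segment for each replicate (rep), stacked as summits inside EPIC2 regions (blue) and outside them (grey). The blue part is larger in the distal segment in all 3 replicates on both chromosomes, while the grey part is smaller in replicates 1 and 3 and larger in replicate 2 on chromosome 9 and larger in all 3 on chromosome 21.

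Common regions were wider on distal 9q than in the remainder of chromosome 9. The median width reached 2200, 2400 and 3800 bases there in replicates 1, 2 and 3, compared with 1400, 2000 and 2800 bases in the remainder, so the distal median was larger in each replicate. The ratio was 1.57, 1.20 and 1.36, a mean of 1.38 ± 0.186 (SD, n = 3), with an exact sign-flip permutation p of 0.25 and an adjusted p of 0.4 over the 8 tests run. Regions of at least 5 kb made up 12.97%, 8.98% and 34.9% of common regions on distal 9q and 2.07%, 3.35% and 14.1% in the remainder. The widest reached 26000, 11400 and 32200 bases on the distal arm against 8600, 10200 and 18400 bases elsewhere on chromosome 9. Over the genome the median width was 1600, 2400 and 3200 bases. Distal 9q thus equalled the genome in replicate 2 and exceeded it in replicates 1 and 3. The remainder of chromosome 9 lay below the genome median in each replicate.

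Width on distal 21q was less clear. The medians were 1600, 2000 and 3200 bases against 1200, 2200 and 2800 bases, so replicate 2 was narrower there and the others wider. The ratio was 1.33, 0.909 and 1.14, a mean of 1.13 ± 0.212 (SD, n = 3) with an exact sign-flip permutation p of 0.5 and an adjusted p of 0.5. The direction in replicate 2 depended on the segments compared. Against the part of the remainder after the stretch without calls from 12 to 14 Mb, the ratio was 1.22 ± 0.102. It was above 1 in all 3 replicates (exact sign-flip permutation p = 0.25). With the split 3 Mb nearer the telomere it was 1.31 ± 0.163, also above 1 in all 3 (exact sign-flip permutation p = 0.25). The remainder of chromosome 21 rested on 51 common regions in replicate 2 and 95 in replicate 3, and it held the widest single regions, of 56000 and 46600 bases in those replicates. Distal 21q equalled the genome median width in replicates 1 and 3 and was narrower in replicate 2, where the genome median was 2400 bases. With this split and the whole remainder, the width ratio was higher on chromosome 9 than on chromosome 21 in each replicate, by 0.238, 0.291 and 0.214. For the last 15 Mb of each chromosome the order turned in replicate 2, with 1.20 on chromosome 9 and 1.29 on chromosome 21. EPIC2 joins neighbouring enriched steps of 200 bases, and density and width rose together on distal 9q. Their dependence was not tested.

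A common region held 1.28, 1.13 and 1.24 summits on distal 9q against 1.18, 1.09 and 1.23 in the remainder. The ratio was 1.05 ± 0.0423 (SD, n = 3) and above 1 in each replicate, with an exact sign-flip permutation p of 0.25 and an adjusted p of 0.4. Each kb of common region held 0.456, 0.420 and 0.263 summits on distal 9q and 0.729, 0.491 and 0.375 in the remainder. Every common region holds a summit by definition and most held only 1, so this value falls where regions are wider. It is not a result separate from width. On distal 21q a region held 1.22, 1.07 and 1.18 summits against 1.13, 1.16 and 1.31, a ratio of 0.969 ± 0.0934 with an exact sign-flip permutation p of 0.5 and an adjusted p of 0.5. Only replicate 1 had more summits per region there.

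The summits did not rank higher by score on the distal arms, except in replicate 2 on chromosome 9. The MACS2 score, read as −log10 of the q-value, was turned into a percentile among all common regions of its own replicate, using the highest summit of each region. The median percentile was 41.4, 53.0 and 39.3 on distal 9q against 52.9, 49.5 and 53.6 in the remainder. The difference was -11.4, 3.49 and -14.2, a mean of -7.40 ± 9.53 (SD, n = 3), within the spread between replicates, with an exact sign-flip permutation p of 0.5 and an adjusted p of 0.5. It was -12.8 without replicate 2 and -3.97 without replicate 3. On distal 21q the medians were 46.2, 51.7 and 42.4 against 59.1, 54.7 and 64.2, lower in each replicate, with a mean difference of -12.6 ± 9.38, an exact sign-flip permutation p of 0.25 and an adjusted p of 0.4. Without replicate 3 this difference was -7.98.

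The EPIC2 score moved the other way, although the sources used here do not say what it measures. Its median percentile was 64.9, 52.0 and 59.5 on distal 9q against 41.5, 39.97 and 39.9, a difference of 18.3 ± 5.77 (SD, n = 3). On distal 21q it was 49.8, 45.3 and 43.8 against 36.3, 40.8 and 41.8, a difference of 6.68 ± 6.06. Distal regions were therefore ranked higher by EPIC2 in each replicate on both arms, while the rank of their best summit was lower in 5 of the 6 comparisons of a replicate with its own remainder. The EPIC2 score comes from the caller whose counts placed the split, so this difference is a description.

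A larger share of distal regions than of regions in the remainder was found again in another replicate. On distal 9q, 61.2%, 87.9% and 72.8% of the common regions of replicates 1, 2 and 3 overlapped a common region of another replicate by at least 1 base, against 39.5%, 72.8% and 53.9% in the remainder. The difference was 18.6 ± 3.28 percentage points (SD, n = 3), above 0 in each replicate, with an exact sign-flip permutation p of 0.25 and an adjusted p of 0.4. On distal 21q the shares were 47.9%, 79.5% and 61.9% against 27.9%, 74.5% and 57.9%, a difference of 9.67 ± 8.999 with an exact sign-flip permutation p of 0.25 and an adjusted p of 0.4. Replicate 1 carried most of the latter, since the difference was 20.0 points there and 4.98 and 3.99 points in the other replicates. With replicate 1 left out altogether, the mean difference was 11.3 points on chromosome 9 and 0.297 points on chromosome 21. Over all common regions of the genome, the share was 48.4%, 79.0% and 60.9% in replicates 1, 2 and 3. Distal 9q lay above that share in each replicate, whereas distal 21q lay close to it and its remainder below it.

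Coverage moved with sharing. Common regions covered 22.9%, 6.31% and 22.2% of distal 9q against 4.19%, 1.10% and 4.53% of the remainder, and 11.2%, 3.45% and 11.1% of distal 21q against 1.85%, 0.853% and 1.72%. With a reciprocal overlap of at least 50%, the difference in sharing was 3.70 points on chromosome 9 and -1.09 points on chromosome 21. Within 3 classes of width it was 14.2 and 5.01 points. The part of coverage in the sharing was not tested.

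**Figure D4:**
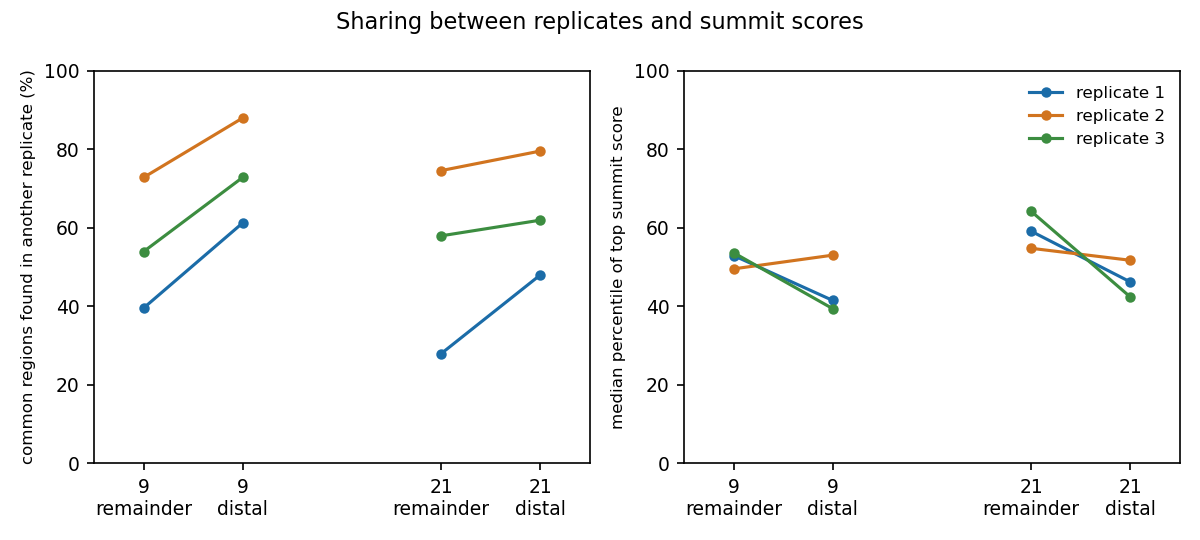
Percent of common regions that overlap a common region of another replicate by at least 1 base (left) and median percentile of the highest summit score within the replicate (right), in the remainder and the distal segment of chromosomes 9 and 21, with 1 line per replicate. Sharing is higher in the distal segment in all 3 replicates on both chromosomes, and the summit percentile is lower in all but replicate 2 of chromosome 9.

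Merging overlapping common regions and keeping those held by at least 2 replicates gave consensus origins. Distal 9q had 734, or 40.8 per Mb, and the remainder of chromosome 9 had 972, or 9.53 per Mb, a ratio of 4.28. The distal arm thus held 43.0% of the consensus origins of the chromosome on 15% of its span with calls. All 3 replicates held 163 of the 734, or 22.2%, against 11.4% in the remainder and 19.1% of the 42072 consensus origins of the genome. Their median width was 5000 bases against 3400, and their median spacing was 8600 bases against 25000.

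Distal 21q had 391 consensus origins, or 24.4 per Mb, and the rest of that chromosome had 77, or 3.5 per Mb, a ratio of 6.98. The distal arm held 83.5% of the chromosome's consensus origins on 42.1% of its span. All 3 replicates held 67, or 17.1%, against 9 of 77, or 11.7%, in the remainder. Both shares were below the 19.1% of the genome. Replicate 1 was among the holders of 99.2% of consensus origins on distal 9q and 98.7% on distal 21q, whereas replicate 2 was among those of 45.5% and 47.1%. A consensus origin on these arms was therefore, with few exceptions, a region of replicate 1 seen again in replicate 3, replicate 2 or both. The remainders of chromosomes 9 and 21 were alike in this, with shares of 97.5% and 94.8% for replicate 1 and 37.7% and 48.1% for replicate 2.

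Consensus origins held by all 3 replicates were ranked by the mean percentile of their highest summit, and the first 5 of each arm were named. On distal 9q the first was chr9:139759001-139784400 (hg19), a region of 25400 bases with top summit scores of 29.0, 27.9 and 7.38 in replicates 1, 2 and 3. It was followed by chr9:127531201-127541000, with scores of 20.3, 24.7 and 7.86, and by chr9:135625401-135629200, with 24.3, 30.1 and 7.06. The others were chr9:138617401-138622600, with 13.2, 24.4 and 10.6, and chr9:139639801-139645600, with 16.3, 19.5 and 8.88. Of these 5 origins, 4 lay beyond 135 Mb, and the first and the last lay in the same 1 Mb window. The steps of 3 Mb that start at 133, 136 and 139 Mb had 42.7, 40 and 38.7 consensus origins per Mb. Distal 9q as a whole had 40.8 per Mb. The 5 named origins are too few to read a preferred position from. The scores of these origins were lowest in replicate 3 in all 5, so scores were compared within a replicate and not between replicates.

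On distal 21q the first was chr21:38338201-38340800, a region of 2600 bases with top summit scores of 29.2, 29.1 and 8.18. The second, chr21:38374601-38388800, lay in the same 1 Mb window and was 14200 bases wide, with scores of 34.4, 21.1 and 8.01. The next were chr21:33648201-33652000, with 20.9, 9.73 and 10.6, and chr21:45187601-45202000, with 11.6, 11.97 and 12.4. The last was chr21:34636001-34637400, with 33.3, 7.30 and 9.99. Its percentiles were 99.0, 57.1 and 90.4, so a high mean did not need a high rank in each replicate. Of these 5 origins, 1 lay in the stretch of distal 21q densest in common regions, from 45 to 48 Mb. That stretch had 47 consensus origins per Mb, against 24.4 over distal 21q. The 5 origins are too few to read a preferred position from.

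No EPIC2 region spanned either split. The last consensus origin before the split on chromosome 9 was chr9:123997801-123999600, held by replicates 1 and 2 with top summit scores of 48.6 and 10.004. The first after it was chr9:124009201-124011600, held by the same replicates with 8.08 and 3.19. On chromosome 21 they were chr21:32987601-32990000, with 12.4 in replicate 1 and 4.505 in replicate 3, and chr21:33009601-33017000, with 5.46 and 3.03. The origins just outside the splits thus had higher scores than those just inside.

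Other chromosome ends were set beside these arms by taking the last 15 Mb of each of 23 chromosomes against the rest of the chromosome. Density was higher in the distal 15 Mb in every replicate on 15 of the 23, or 65.2%, so a denser end was common. Chromosomes 21 and 9 had the highest mean ratios of the 23, at 4.84 ± 0.955 and 3.81 ± 0.912 (SD, n = 3), and chromosome 5 followed at 2.57 ± 0.451. EPIC2 regions per summit were higher in every replicate on 12 of 23, or 52.2%, and chromosomes 21 and 9 again led, at 2.16 ± 0.400 and 1.89 ± 0.327. The median width was larger in every replicate on 10 of 23, or 43.5%, and chromosome 9, at a mean ratio of 1.38, ranked 3. Chromosome 21 was also among the 10, with ratios of 1.33, 1.29 and 1.21 for its last 15 Mb, a mean of 1.28 at rank 5. Since these chromosomes were chosen for their ratio, their ranks are descriptions.

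**Figure D5:**
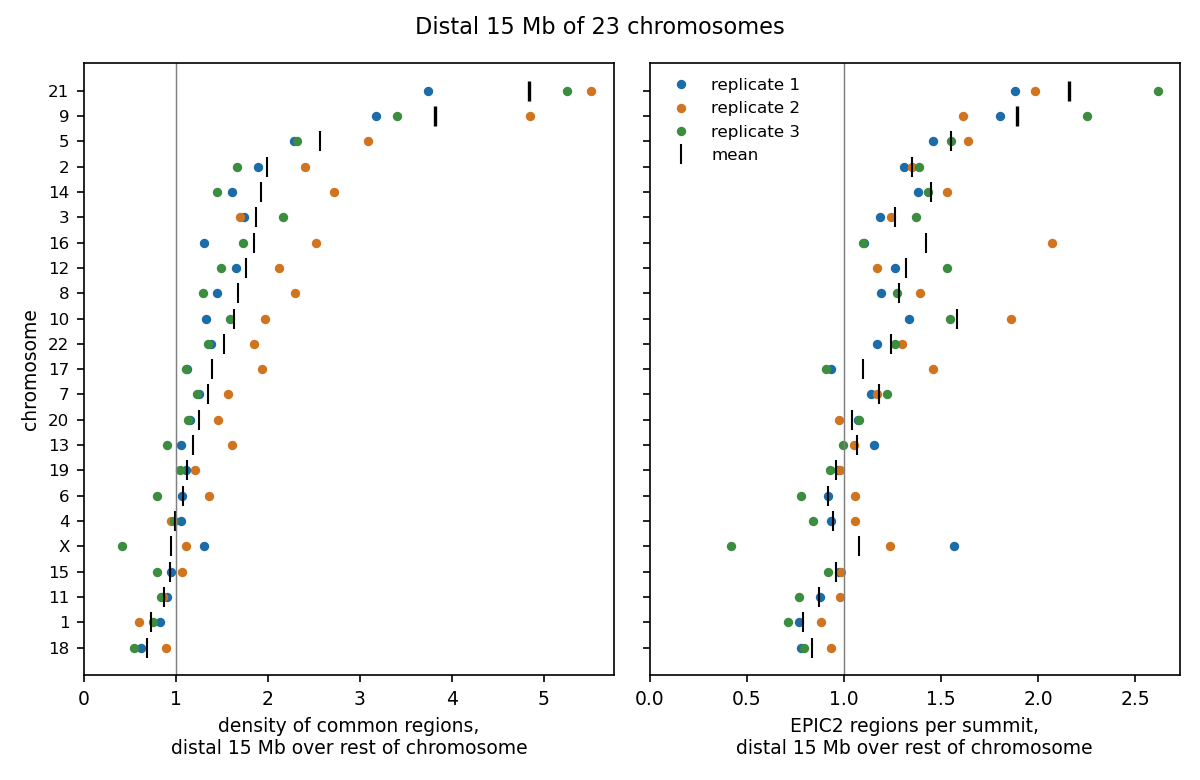
Density of common regions (left) and EPIC2 regions per summit (right) in the last 15 Mb of each of 23 chromosomes, divided by the rest of the chromosome, with a point per replicate, a bar at the mean and a grey line at 1. Chromosomes are ordered by mean density ratio, and 21 and 9 stand at the top in both panels.

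The remainder of neither chromosome was uniform. On chromosome 9 it had 22.1, 3.82 and 11.4 common regions per Mb before the long stretch without calls around the centromere and 28.9, 5.84 and 15.7 per Mb after it. Against the latter part alone, the density ratio of distal 9q was 3.28 ± 0.650 (SD, n = 3). On chromosome 21 the part between the stretch without calls around the centromere and the split had 14.4, 2.00 and 4.26 common regions per Mb, close to the whole remainder. The 3 windows with calls on the other side of it held 7, 4.33 and 4.67 per Mb.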

How the data were processed

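The 3 SNS-seq samples, all from untreated HCT116 cells, form 1 group, with replicate numbers from the labels. Whether they came from separate cultures is not given in the labels, so p-values measure only the spread between these samples. Per the submitters' processing notes, the authors used Bowtie2 2.3.4.2, Picard 2.18.17 and MACS2 2.1.0.20151222, with hg19 as the build. Replicates were called separately. No control library is named in the sources used here. Each region in the deposited EPIC2 lists has a score, whose kind is not given and which served here only for ranking regions inside each replicate. In the deposited MACS2 lists a summit is 1 base with a score, taken to be a −log10 q-value because no score was under 1.00. EPIC2 widths are multiples of 200 bases.

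Members and lists were chosen with earlier results of these data known. Density was counted over 1 Mb windows with a call in any replicate, and the last window of each arm, which the calls barely enter, was kept. Consensus origins were merged at an overlap of at least 1 base and needed at least 2 replicates. Exact sign-flip tests used log2 ratios or differences per replicate, adjusted by Benjamini-Hochberg over 8 tests. Named regions were, per arm, the 5 consensus origins of all 3 replicates that ranked highest by top summit score (mean percentile), the consensus origins beside the split and the 3 fullest windows. The last EPIC2 region on chromosome 1, ending at 249207400, exceeds the length of chromosome 1 in the GRCh38 assembly (248956422), so no sequence was read from that reference and no gene was named from it. Alternatives covered the span, the remainder, the split, score limits, the unit, the overlap, width classes and each replicate left out. Leaving out the last window was added after seeing the data. Functions were tested on simulated regions, where a density ratio of 4 was recovered as 3.88 and 4.08 for 2850 regions. Computation used Python 3.11.15, numpy 2.4.6, pandas 2.3.3, scipy 1.17.1, statsmodels 0.14.6 and matplotlib 3.10.9.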

Additional observations from a re-analysis of the deposited data

How the results depend on the processing

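Over the 16 results, 184 alternative values were computed. Of these, 4 changed direction, and the ratios that moved most are given here. The reported density ratio of 3.75 on chromosome 9 and 5.75 on chromosome 21 became 8.63 on chromosome 21 with all windows up to the last call, 3.81 there with the split 3 Mb nearer the telomere, 5.22 on chromosome 9 with the upper 50% of EPIC2 scores, and 2.13 and 2.53 with summits as the unit. With that score limit, EPIC2 regions per summit on chromosome 9 had a quotient of 2.59. The spacing ratio became 0.650 on chromosome 9 with summits as the unit and 0.247 on chromosome 21 with the split 3 Mb nearer the centromere. The consensus ratio on chromosome 9, reported as 4.28, was 5.202 with all windows, 3.56 against the adjacent stretch of equal length, 3.81 against the part after the longest stretch without calls, 3.74 with the split nearer the centromere, 6.26 with the upper 50% of EPIC2 scores and 8.32 with all 3 replicates required. On chromosome 21, reported as 6.98, it was 10.5 with all windows, 4.24 with the split nearer the telomere, 9.33 with the upper 50% of scores and 10.2 with all 3 replicates required. The ratio of summits per common region on chromosome 21, reported as 0.969, turned to 1.03 against the adjacent stretch. It turned to 1.02 against the part after the stretch without calls from 12 to 14 Mb. The difference in sharing on chromosome 21 turned to -1.09 points with a reciprocal overlap of 50%. That setting lowered the difference from 18.6 to 3.70 points on chromosome 9. The cause was not tested.

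With each replicate left out in turn, the consensus ratio ranged from 4.44 (without replicate 2) to 6.56 (without replicate 1) on chromosome 9, where both remaining replicates were then required, and the ratio of summits per common region on chromosome 21 from 0.916 to 1.00. The difference in sharing ranged from 11.3 to 18.8 points on chromosome 9 and from 0.297 to 11.8 on chromosome 21, lowest without replicate 1 on both. Without the last window of each chromosome, chosen after seeing the data, the density ratios were 3.97 and 6.10.

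With 3 replicates, no exact sign-flip test could go below 0.25. Read depth is unknown and no control library is named, so the number of calls per replicate cannot be set against depth, and the replicate with the fewest calls cannot be told apart from a shallower library. Widths and gaps are resolved to 200 bases. Medians for the remainder of chromosome 21 rest on few regions in replicate 2.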

Other observations

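Summits allow a closer look at how exactly the replicates placed their calls on the distal arms. On distal 9q, 40.9% of the 767 summits of replicate 2 had a summit of replicate 1 within 100 bases, against 35.7% of 1660 in the remainder of the chromosome. On distal 21q the share was 38.9% of 496 against 27.3% of 245. Replicate 3 matched less closely. Of the summits of replicate 2, 5.35% on distal 9q and 8.27% on distal 21q had a summit of replicate 3 within 100 bases, against 7.83% and 11.0% in the remainders. Of the summits of replicate 3, 10.1% on distal 9q and 11.7% on distal 21q had one of replicate 1 that close, against 10.2% and 11.3%. The share of matched summits was thus higher on the distal arms for replicate 2 with replicate 1, lower for replicate 2 with replicate 3 and nearly equal for replicate 3 with replicate 1. Summits were 2.13 and 2.53 times as dense there as in the remainders, and the part of that density in the matches was not tested.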
